A study of Mus musculus with 52 samples.

Results

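Esr1, Cyp2e1 and Itih5 are genes whose transcripts were higher in cerebellum endothelial cells (ECs) with stabilized beta-catenin than in wild-type (WT) cerebellum ECs, and they were chosen by that difference in TPM and read counts. They are 3 of the 49585 genes to which the annotated transcripts were assigned, and all 3 were measured in each of the 40 RNA-seq libraries. The question addressed here is whether the rise in cerebellum ECs also held in other vascular beds. Because the cerebellum values chose the genes, they are given as a description with no test.

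Altogether 52 samples from mice made up 26 groups, each with 2 replicates. RNA-seq was performed on GFP-positive cells (ECs) and GFP-negative cells (the rest of the tissue) sorted from cerebellum, anterior pituitary and posterior pituitary in 24 libraries, and ATAC-seq, which maps open chromatin, on sorted ECs of these 3 tissues in 12 libraries. The other 16 RNA-seq libraries came from RiboTag mice, in which Cre recombination tags the ribosomes of ECs, so that RNA bound to tagged ribosomes (bound) can be compared with RNA of the whole tissue (input) in cortex and choroid plexus. WT sorted cells carried the Tie2-GFP transgene alone. Stabilized sorted cells carried Tie2-GFP, Pdgfb-CreER and BcatEx3fl, an allele of Ctnnb1 (beta-catenin) from which Cre removes exon 3 to give a protein that escapes degradation. These stabilized mice received 100 µg of 4-hydroxytamoxifen (4HT) at postnatal day 10. WT RiboTag mice carried RiboTag and Pdgfb-CreER, and stabilized RiboTag mice carried BcatEx3fl as well. Both RiboTag genotypes were given 4HT and were analysed at 6 to 8 weeks of age, with the choroid plexi of 3 to 4 animals pooled per sample. Pituitary samples pooled 20 to 30 mice between postnatal days 30 and 90, and every sample was labelled adult and male. In the sorted cells genotype therefore cannot be told apart from the CreER transgene and from 4HT, while in the RiboTag mice CreER was present in both genotypes. CreER is Cre fused to the ligand-binding part of an estrogen receptor, and 4HT is a ligand of that receptor.

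Libraries held between 6409013 and 37529274 estimated reads. Stabilized anterior pituitary GFP-positive replicate 2 was labelled anterior in its title and posterior in its tissue field, and was taken as anterior. The stabilized cortex libraries did not match their label of male. Xist, the RNA that coats the inactive X chromosome, stood at 7.76 and 8.29 TPM in stabilized cortex bound RNA and at 0 TPM in both WT cortex bound libraries. The summed TPM of 4 Y-linked genes was between 0 and 0.212 in stabilized cortex bound RNA and between 45.9 and 53.5 in WT cortex bound RNA. Genotype and sex therefore cannot be told apart in cortex. Bound libraries of the choroid plexus held both kinds of RNA, with Xist between 18.7 and 35.9 TPM in WT and between 40.9 and 62.4 TPM in stabilized samples. Y-linked RNA there was between 35.6 and 54.8 TPM in WT and between 11.6 and 30.5 TPM in stabilized samples, so both moved with genotype in choroid plexus too. All 24 sorted libraries held Y-linked RNA (28.6 to 105 TPM) and at most 0.0255 TPM of Xist.

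Estrogen receptor alpha, the product of Esr1, is a nuclear receptor that binds estradiol and then regulates transcription at estrogen response elements. In the pituitary it is known for its role in lactotrophs and gonadotrophs, and in ECs for regulating nitric oxide synthesis. Cyp2e1 encodes a cytochrome P450 that oxidizes ethanol and other small molecules. It is best known as a gene of hepatocytes around the central vein, where its expression depends on beta-catenin. Itih5 encodes a secreted member of the inter-alpha-trypsin inhibitor heavy chain family, whose members bind hyaluronan in the extracellular matrix. Beta-catenin acts with TCF/LEF factors, and in brain ECs this pathway maintains the blood-brain barrier.

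All 3 genes lie on the plus strand of the GRCm38 assembly. Esr1 (ENSMUSG00000019768) spans chr10:4611593-5005614, Cyp2e1 (ENSMUSG00000025479) spans chr7:140763739-140774987, and Itih5 (ENSMUSG00000025780) spans chr2:10153571-10256529. The sequences below are those to which the chromatin results or a motif match refer. Capitals mark a match to the TCF/LEF motif TTCAAAG, read here on the minus strand at chr7:140763684-140763690. The Cyp2e1 promoter (chr7:140763569-140763868, 250 bases before to 50 bases after the RefSeq start, GRCm38.p6) is shown because it was the only listed promoter of the 3 genes with a match to any motif searched. The Itih5 element (chr2:10160043-10160243, intron) and the Esr1 element (chr10:4612766-4612966, intron) are the 201 bases around the summits of ATAC-seq peaks that appeared in stabilized anterior pituitary ECs, read on the plus strand of the RefSeq genome.
Cyp2e1 promoter: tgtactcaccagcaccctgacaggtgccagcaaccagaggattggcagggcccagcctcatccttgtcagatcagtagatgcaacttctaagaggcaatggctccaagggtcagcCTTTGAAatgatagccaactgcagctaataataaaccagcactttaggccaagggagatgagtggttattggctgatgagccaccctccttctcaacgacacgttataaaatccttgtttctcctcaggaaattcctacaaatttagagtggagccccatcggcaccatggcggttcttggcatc
Itih5 intronic element: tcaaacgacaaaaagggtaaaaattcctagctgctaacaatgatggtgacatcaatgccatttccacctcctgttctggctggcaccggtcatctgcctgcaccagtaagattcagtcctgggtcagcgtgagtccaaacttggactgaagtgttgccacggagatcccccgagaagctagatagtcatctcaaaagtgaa
Esr1 intronic element: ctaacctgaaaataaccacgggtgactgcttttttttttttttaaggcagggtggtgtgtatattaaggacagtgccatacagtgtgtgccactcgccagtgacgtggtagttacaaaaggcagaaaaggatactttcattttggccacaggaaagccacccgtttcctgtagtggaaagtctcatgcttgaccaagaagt

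In cerebellum ECs, the values that chose the genes were as follows. Esr1 was at 0 and 0.0518 TPM (a level scaled for transcript length and for the library's total) in WT replicates 1 and 2 and at 47.9 and 76.7 TPM in the stabilized replicates. Cyp2e1 was at 0.641 and 0.136 TPM in WT and at 55.9 and 45.3 TPM in stabilized ECs. Itih5 was at 83.2 and 41.2 TPM in WT and at 194 and 186 TPM in stabilized ECs. For each gene both stabilized libraries lay above both WT libraries. On the log2 scale of the count model the differences were 8.19 ± 1.12 (SE) for Esr1, 6.70 ± 1.08 for Cyp2e1 and 1.83 ± 0.35 for Itih5. Esr1 and Cyp2e1 thus went from near 0, and Itih5 from an already high level. Summed markers of mural cells were between 375 and 446 TPM in stabilized and between 602 and 731 TPM in WT cerebellum ECs. Fibroblast and meningeal markers were between 5.16 and 8.43 TPM in stabilized and between 32.7 and 37.6 TPM in WT, and endothelial markers between 2609 and 3113 TPM in stabilized and between 3245 and 3510 TPM in WT. Their part in these values was not tested. In this contrast 0.067% of 17915 genes were called higher and 0.581% lower, where a call needed an adjusted p under 0.05 and at least a 2-fold change. Since the genes were chosen on this contrast, nothing is read from these shares.

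**Figure D1:**
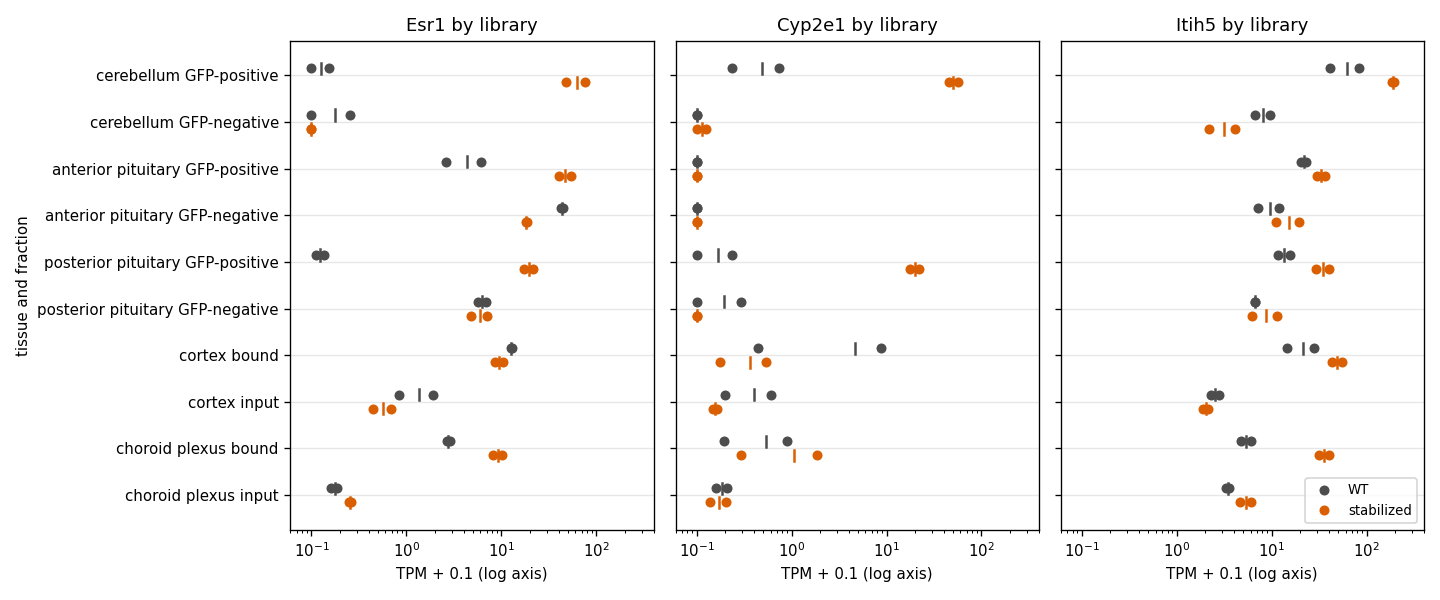
TPM + 0.1 on a log axis for each gene in every tissue and fraction, with a point for each library and a vertical bar at the mean of 2 replicates, WT in gray and stabilized in orange. Esr1 and Cyp2e1 in posterior pituitary GFP-positive cells went from at most 0.138 TPM in WT to at least 17.1 TPM, while Cyp2e1 stayed at 0 in all anterior pituitary libraries.

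In posterior pituitary ECs, all 3 genes rose with beta-catenin stabilization. Across these ECs 224 of 17915 genes, or 1.25%, were called higher and 0.541% lower. Esr1 was at 0.0349 and 0.0120 TPM in WT, from 8 and 2 reads, and at 17.1 and 21.4 TPM in stabilized ECs, from 550 and 784 reads. Its log2 fold change was 7.33 ± 1.10 (edgeR quasi-likelihood test, adjusted p = 0.00507). Most of the stabilized reads lay on short transcripts of the ligand-binding part, where reads of Esr1 and of CreER cannot be told apart. Counted without these transcripts Esr1 was not called (log2 fold change 3.85, edgeR, adjusted p = 0.351). Summed over replicates, its reads per total were 131 times higher, with a 95% counting interval of 71.1 to 274 (exact binomial, counting error only). The groups did not overlap. With 2 libraries per group this can happen often without a change, so here and below it is a description only. The share of all genes without overlap was not counted.

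Cyp2e1 in posterior pituitary ECs was at 0 and 0.138 TPM in WT, and at 17.5 and 21.8 TPM in stabilized ECs. The WT value rested on 3 reads in replicate 2, against 886 and 794 reads in the stabilized libraries. The ratio of reads per total was 550, with a 95% counting interval of 188 to 2672. The fitted log2 fold change was 9.07 ± 1.27 (edgeR, adjusted p = 0.00609). It depended on the WT reads, at 13.13 without WT replicate 2 and 7.80 without WT replicate 1, and was called in both cases.

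Itih5 in posterior pituitary ECs was at 11.6 and 15.4 TPM in WT and at 29.1 and 40.4 TPM in stabilized ECs, again without overlap. Its log2 fold change was 2.19 ± 0.35 (edgeR, adjusted p = 0.00858). Fitted on these 4 libraries alone, the call was lost for Itih5 (adjusted p = 0.115) and for Cyp2e1 (adjusted p = 0.0577). The summed TPM of 10 endothelial markers was lower in the stabilized posterior pituitary libraries (1816 to 2057) than in WT (4334 to 6638), so the 3 genes moved opposite to it. Summed markers of pituitary endocrine cells were between 346 and 808 TPM in stabilized and between 473 and 3353 TPM in WT posterior pituitary ECs. The hormone gene Pomc alone was at 330 and 800 TPM in stabilized and at 3307 and 470 TPM in WT. Gh and Prl, the growth hormone and prolactin genes, were at most 11.0 and 3.42 TPM. In WT posterior pituitary GFP-negative cells Pomc was at 53739 and 55689 TPM, and Gh at 12.8 and 0.687 TPM. Summed mural cell markers were lower (48.4 to 55.0 against 84.7 to 158). Summed microglia markers were higher (259 to 351 against 37.2 to 51.6), and C1qa, a complement gene of microglia and macrophages, was at 111 and 90.4 TPM against 0 and 0.043. Summed choroid plexus epithelium markers were higher as well (254 to 301 against 59.2 to 72.7). Ttr, the transthyretin gene of that epithelium, was however at 0.028 and 1.05 TPM in stabilized and at 0.105 and 0.083 TPM in WT. The part of other cells in the 3 results was not tested. In bulk samples, fewer cells of a type and less RNA per cell cannot be told apart.

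In anterior pituitary ECs no member was called, and of the 3 only Esr1 passed 0.05 before adjustment. Here 79 of 17915 genes, or 0.441%, were called higher and 0.0167% lower. Esr1 was at 5.96 and 2.48 TPM in WT and at 39.9 and 54.0 TPM in stabilized ECs, and the groups did not overlap. Its log2 fold change was 1.96 ± 0.82 (edgeR, adjusted p = 0.665). Summed reads per total were 3.86 times higher, with a 95% counting interval of 3.58 to 4.16. Without the filter on low counts Esr1 was called (adjusted p = 0.0364). Without the short transcripts, which held 72.4% of the stabilized reads, the log2 fold change was 0.39 (edgeR, adjusted p = 1). Without stabilized replicate 2, the library with conflicting tissue labels, its log2 fold change was 1.70 (adjusted p = 1). Itih5 was at 20.4 and 23.1 TPM in WT and at 36.2 and 30.0 TPM in stabilized ECs. Its log2 fold change was 0.68 ± 0.34 (edgeR, adjusted p = 0.698), and 0.63 without stabilized replicate 2. Summed microglia markers were higher in stabilized anterior pituitary ECs (191 to 321 TPM) than in WT (20.1 to 26.8 TPM). So were choroid plexus epithelium markers, between 54.8 and 86.3 TPM in stabilized and between 8.18 and 9.44 TPM in WT. Ttr of that epithelium was however at 0.165 and 0.178 TPM in stabilized and at 0 and 0.019 TPM in WT. Summed endocrine cell markers were between 4074 and 4656 TPM in stabilized and between 4402 and 6854 TPM in WT, and endothelial markers between 2874 and 3392 TPM in stabilized and between 2812 and 4390 TPM in WT. Their part in these values was not tested.

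Cyp2e1 had no read in any of the 4 anterior pituitary GFP-positive libraries, nor in the 4 GFP-negative ones. In the stabilized ECs a count of 0 in both libraries allows up to 0.0623 RPM (reads scaled to the library's total in the manner of TPM, without length), taking 3 reads as the limit over the group. Cyp2e1 was therefore at least 577-fold higher in reads per total in stabilized posterior than in stabilized anterior pituitary ECs. No fold change between genotypes can be given where both are at 0. Nkd1, a feedback inhibitor of the Wnt pathway, was called higher in these anterior pituitary ECs, at 0.039 and 0 TPM in WT and at 6.76 and 12.6 TPM in stabilized ECs.

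The responses of the pituitary lobes were compared with an interaction term. The response of Esr1 was larger in posterior than in anterior pituitary ECs by 5.37 ± 1.28 on the log2 scale, without passing the test (edgeR, adjusted p = 0.186). In mean TPM Esr1 went from 4.22 to 47.0 in anterior and from 0.0234 to 19.3 in posterior pituitary ECs, so the direction depended on the scale. The log2 difference was called in 8 of 16 alternatives, among them DESeq2 (5.43, adjusted p = 0.000394). It was 5.66 without stabilized anterior pituitary replicate 2. Without the short transcripts it was 3.45 (edgeR, adjusted p = 0.671). The study's methods describe both lobes as dissected from the same mice. With a block for each pool of pituitaries, fitted on the pituitary ECs alone, the Esr1 difference was 5.46 (edgeR, adjusted p = 0.0369), against 5.36 in these libraries without the block (edgeR, adjusted p = 0.0315), and that of Itih5 was 1.58 (edgeR, adjusted p = 0.325). For Itih5 the difference was 1.52 ± 0.48 (edgeR, adjusted p = 0.363), and DESeq2 called it (adjusted p = 0.0437). Of all genes, 0.0558% were called with a larger and 0.0726% with a smaller response in the posterior lobe. For Cyp2e1 the interaction gave no estimate, since the anterior libraries held no reads.

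In RNA bound to the tagged ribosomes of RiboTag mice, Itih5 was the member that rose in both tissues. Of 16775 genes, 3.65% were called higher and 2.69% lower in cortex bound RNA, and 0.656% higher and 0.197% lower in choroid plexus bound RNA. In cortex, Itih5 was at 27.7 and 14.5 TPM in WT and at 54.4 and 43.0 TPM in stabilized samples, with a log2 fold change of 2.07 ± 0.33 (edgeR, adjusted p = 0.00901). In choroid plexus it was at 4.64 and 5.93 TPM in WT and at 39.7 and 31.3 TPM in stabilized samples, with a log2 fold change of 2.86 ± 0.34 (edgeR, adjusted p = 0.00695). The groups did not overlap in either tissue. The difference between the responses, choroid plexus minus cortex, was 0.78 ± 0.45 (edgeR, adjusted p = 0.409), in a contrast where 0.864% of genes were called with a larger and 1.28% with a smaller response in choroid plexus.

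Bound RNA held other cells' markers beside those of ECs. In WT cortex, summed endothelial markers were between 531 and 1289 TPM in bound and between 20.3 and 27.3 TPM in input RNA, and summed microglia markers between 2934 and 4047 TPM in bound and between 111 and 117 TPM in input RNA. Markers of ECs and of other cells moved with genotype in the bound RNA. The median log2 fold change of 10 endothelial markers was 0.823 in cortex and 0.685 in choroid plexus, where the median of all genes was 0 and -0.09. Their summed TPM was 531 to 1289 in WT and 910 to 1036 in stabilized cortex, and 468 to 572 in WT and 776 to 1168 in stabilized choroid plexus. Summed neuron markers in cortex bound RNA were between 336 and 364 TPM in stabilized samples and between 1216 and 1463 TPM in WT, and microglia markers between 1267 and 1464 TPM in stabilized samples and between 2934 and 4047 TPM in WT. Summed choroid plexus epithelium markers in choroid plexus bound RNA were between 12964 and 15000 TPM in stabilized samples and between 22407 and 23342 TPM in WT. Ttr, the transthyretin gene of that epithelium, was at 18553 and 19591 TPM in WT and at 13255 and 11695 TPM in stabilized samples. The part of these cells in the Itih5 results was not tested.

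Esr1 in cortex bound RNA was at 12.7 and 12.5 TPM in WT and at 10.3 and 8.46 TPM in stabilized samples, lower in TPM in both. In reads the groups overlapped, with a log2 fold change of 0.02 ± 0.42 (edgeR, adjusted p = 1). In choroid plexus bound RNA Esr1 was at 2.76 and 2.56 TPM in WT and at 8.04 and 10.0 TPM in stabilized samples. There its log2 fold change of 1.66 ± 0.44 did not pass the test (edgeR, adjusted p = 0.136), while DESeq2 called it (adjusted p = 0.0342). Without the short transcripts, which held 77% of the WT and 95.1% of the stabilized reads, it turned to -0.54 (edgeR, adjusted p = 0.935). The difference between these responses was 1.63 ± 0.61 (edgeR, adjusted p = 0.204).

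Cyp2e1 was not called in bound RNA of either tissue. In cortex it was at 8.69 and 0.344 TPM in WT and at 0.0781 and 0.443 TPM in stabilized samples. Nearly all of the WT level came from replicate 1, with 148 reads against 6 in replicate 2. The log2 fold change was -3.30 ± 1.84 (edgeR, adjusted p = 0.325), and without WT replicate 1 it was 0.69. In choroid plexus it was at 0.796 and 0.0919 TPM in WT and at 1.75 and 0.195 TPM in stabilized samples, and the groups overlapped. That log2 fold change was 2.33 ± 1.77 (edgeR, adjusted p = 0.608), and 0.17 without stabilized replicate 1. Of its 61 reads in stabilized choroid plexus, 55.1 came from replicate 1, and of its 12 reads in WT, 9.18 came from replicate 1.

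**Figure D2:**
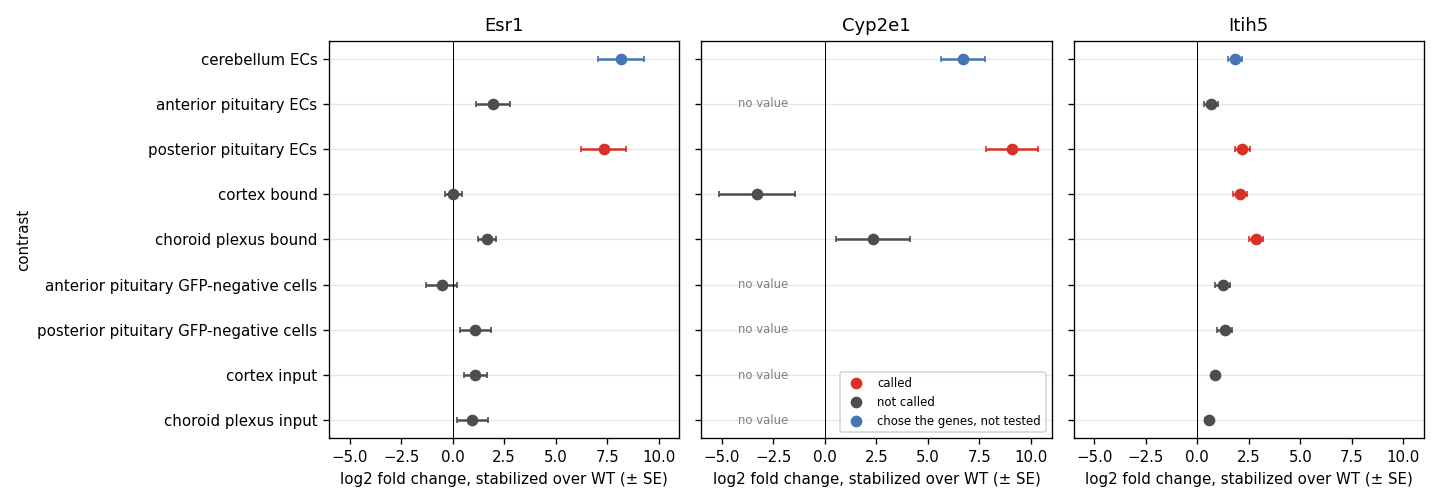
Log2 fold change of stabilized over WT for each gene and contrast with its standard error from edgeR, 2 replicates per group. Called values (adjusted p under 0.05 and at least 2-fold) are red, others dark gray, and the cerebellum values that chose the genes are blue. Itih5 lies at 1.83 to 2.86 in all EC and bound RNA contrasts but that of the anterior pituitary, and Esr1 and Cyp2e1 lie above 6 only in cerebellum and posterior pituitary ECs.

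Where the Esr1 reads lay differed between libraries. The longest annotated Esr1 transcript, ENSMUST00000105590 (6339 bases), carries the full coding sequence of 599 codons with the stop. ENSMUST00000137012 is annotated as a processed transcript of 1019 bases (chr10:4936526-5001656), whose exons overlap the coding sequence between codons 370 and 599. ENSMUST00000127934 (719 bases) overlaps it between codons 370 and 494. These last are called the short transcripts here. These codons lie in the ligand-binding domain of the receptor. In stabilized cerebellum ECs, 91.2% and 97.8% of the Esr1 reads were assigned to the short transcripts. In stabilized posterior pituitary ECs the share was 93.9% and 89.6%, and in stabilized anterior pituitary ECs 66.7% and 77.2%. In WT posterior pituitary ECs it was 0% of 8 and of 2 reads, and in WT anterior pituitary ECs 32.6% and 0%.

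Bound RNA, in which both genotypes carry CreER, showed reads on the short transcripts in WT as well. Their share was 37.6% and 55.1% in WT cortex, 62.4% and 67.8% in stabilized cortex, 97.6% and 54.4% in WT choroid plexus, and 100% and 91.4% in stabilized choroid plexus. In GFP-negative cells of the anterior pituitary, the Esr1 reads lay on the other transcripts, with 2.76% and 0% on the short ones in WT and 0% in both stabilized libraries. WT anterior pituitary libraries carry no CreER, and GFP-positive replicate 1 still held 186 such reads and GFP-negative replicate 1 held 311. Reads of the receptor part of CreER and reads of Esr1 itself cannot be told apart in these files.

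**Figure D3:**
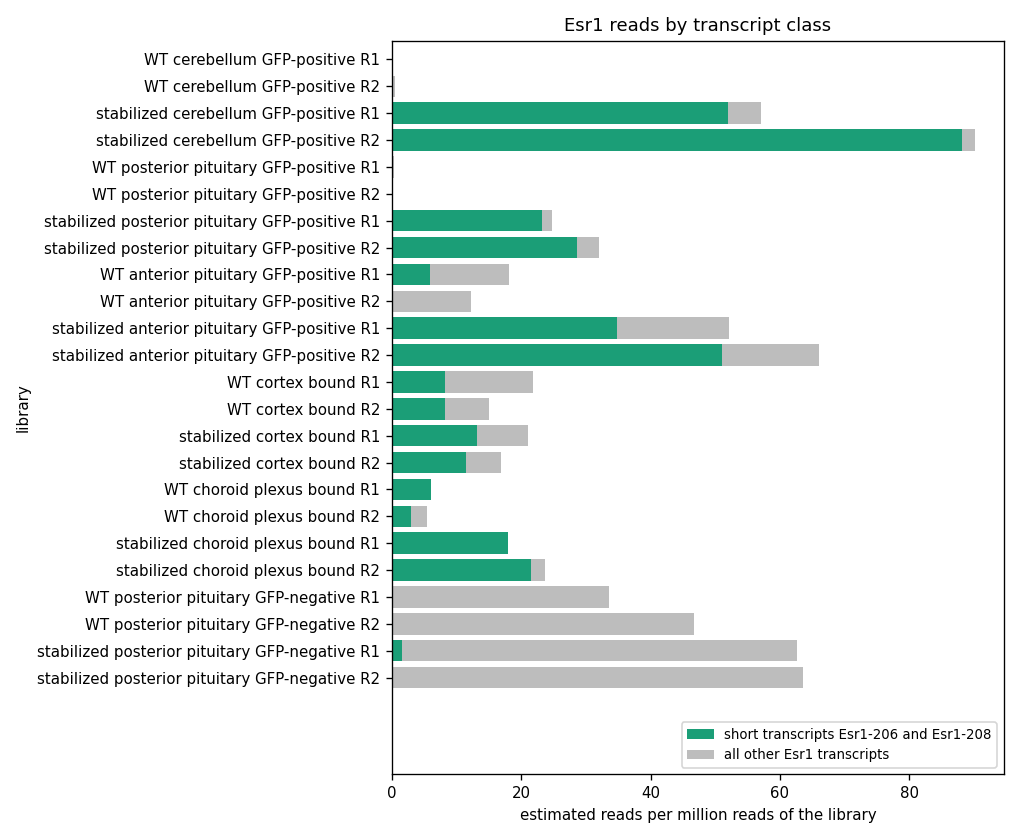
Esr1 reads scaled to the total of each library (RPM), split into the short transcripts (green) and all other Esr1 transcripts (gray), for ECs, bound RNA and posterior pituitary GFP-negative cells. Stabilized ECs of the cerebellum held 52.0 and 88.1 RPM on the short transcripts against 0 in WT, and their gray part was at most 5.02.

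Counted without the short transcripts, an alternative chosen after seeing where the reads lay, Esr1 was called in none of the tested stabilized contrasts. These leave out the cerebellum ECs, which were not tested. In posterior pituitary ECs its log2 fold change was then 3.85 (edgeR, adjusted p = 0.351), from 10 reads in WT to 33.6 and 81.7 reads in the stabilized libraries. In anterior pituitary ECs it was 0.39, in choroid plexus bound RNA -0.54 and in cortex bound RNA -0.61. On the other transcripts, stabilized cerebellum ECs held 142 and 46.4 reads, and WT cerebellum ECs 0 and 14 reads. Most of the Esr1 reads of stabilized ECs in all 3 sorted tissues were thus on the short transcripts.

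Cyp2e1 reads were spread over its transcripts in a way that differed between replicates. The full-length transcript (ENSMUST00000026552, 493 codons) took 93.7% and 60.5% of them in stabilized posterior pituitary ECs, and 17.3% and 73.5% in stabilized cerebellum ECs. Most of the rest was assigned to the shorter ENSMUST00000210235 (333 codons). Itih5 has a single annotated transcript, ENSMUST00000026886, of 14 exons and 952 codons.

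In the cells around the ECs no rise passed the test. In GFP-negative cells no member was called, where 0.0357% of 19612 genes were called higher and 0.0051% lower in the anterior pituitary, 0.0867% higher and 0.0459% lower in the posterior pituitary, and 0.133% higher and 0.627% lower in the cerebellum. Esr1 was at 44.2 and 42.1 TPM in WT and at 18.2 and 18.3 TPM in stabilized GFP-negative cells of the anterior pituitary, with a log2 fold change in reads of -0.54 ± 0.74 (edgeR, adjusted p = 1). In those of the posterior pituitary it was at 5.53 and 6.74 TPM in WT and at 6.96 and 4.69 TPM in stabilized cells, with a log2 fold change in reads of 1.10 ± 0.75 (edgeR, adjusted p = 0.598). Itih5 in GFP-negative cells had log2 fold changes of 1.24 ± 0.37 in anterior (edgeR, adjusted p = 0.571) and 1.33 ± 0.37 in posterior pituitary (adjusted p = 0.212, and 0.0327 by DESeq2), and of -0.90 ± 0.37 in cerebellum (adjusted p = 0.406). Esr1 in cerebellum GFP-negative cells had 28 reads in WT replicate 2 and none in the other 3 libraries, so its fitted log2 fold change (-6.69 ± 2.49, edgeR, adjusted p = 0.355) rested on 1 library. It was called lower without the filter on low counts (adjusted p = 0.000485) and without WT replicate 1 (adjusted p = 0.000588). Cyp2e1 reached at most 0.192 TPM in any GFP-negative library.

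In the input RNA of cortex, Itih5 differed by 0.89 ± 0.17 on the log2 scale (edgeR, adjusted p = 0.0100), under the 2-fold bound, while its TPM was 2.17 and 2.66 in WT and 1.80 and 2.05 in stabilized samples. C1qa was at 11.5 and 10.3 TPM in WT and at 4.56 and 4.15 TPM in stabilized cortex input. The part of other cells in these values was not tested. Calls were frequent there, with 8.44% of 16085 genes called higher and 3.38% lower, against 0.0995% and 0.00622% in choroid plexus input. In choroid plexus input the difference was 0.56 ± 0.17 (edgeR, adjusted p = 0.514). The Esr1 value in cortex input turned with the scale and the library, at -0.02 without stabilized replicate 1 and 1.73 without stabilized replicate 2 (edgeR, adjusted p = 0.0333), while its TPM was lower in both stabilized samples by a mean of -1.19 on log2(TPM + 0.1). With all libraries, Esr1 in input differed by 1.10 ± 0.55 in cortex (edgeR, adjusted p = 0.182) and by 0.96 ± 0.75 in choroid plexus (edgeR, adjusted p = 0.834).

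In WT, Esr1 was lower in ECs than in GFP-negative cells, with log2 differences of -4.48 ± 1.01 in anterior pituitary (edgeR, adjusted p = 0.0066) and -7.54 ± 1.23 in posterior pituitary (edgeR, adjusted p = 0.000348). There 5.87% and 7.45% of genes were called lower, and 5.46% and 7.07% higher. In RiboTag WT samples Esr1 was higher in bound than in input RNA, with log2 differences of 1.91 ± 0.51 in cortex (edgeR, adjusted p = 0.0236) and 2.56 ± 0.60 in choroid plexus (edgeR, adjusted p = 0.00905). There 7.46% and 8.67% of genes were called higher, and 4.18% and 6.64% lower. Without the short transcripts these differences were 1.2 and 0.70 and neither was called. The call in cortex was also lost without WT bound replicate 1 (adjusted p = 0.0613) and without either input replicate (0.136 and 0.0501), and that in choroid plexus without either input replicate (0.0829 and 0.0813). Itih5 was higher in bound than in input RNA of WT cortex by 2.72 ± 0.28 (edgeR, adjusted p = 1.86e-05). In WT choroid plexus the Itih5 difference was -0.35 ± 0.26 (edgeR, adjusted p = 0.385). Cyp2e1 bound over input differed by 3.05 ± 1.53 in WT cortex (edgeR, adjusted p = 0.199), where 1 of 11 alternatives called it. In WT choroid plexus it differed by -0.04 ± 1.52 and was not called. In the WT pituitary lobes Itih5 differed between GFP-positive and GFP-negative cells by 1.15 ± 0.38 in the anterior (edgeR, adjusted p = 0.0613, and 0.0234 by DESeq2) and 0.92 ± 0.38 in the posterior lobe (edgeR, adjusted p = 0.124, and 0.0177 without WT GFP-positive replicate 1).

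Ordered by mean TPM over the 20 RNA groups, each gene was highest in stabilized cerebellum ECs. For Itih5 this group (190 ± 5.39 TPM, SD, n = 2) was followed by WT cerebellum ECs (62.2 ± 29.7), stabilized cortex bound (48.7 ± 8.04), stabilized choroid plexus bound (35.5 ± 5.96), stabilized posterior pituitary ECs (34.8 ± 8.04) and stabilized anterior pituitary ECs (33.1 ± 4.43). WT cerebellum ECs and stabilized cortex bound overlapped, and so did the last 3 groups from each to the next. For Cyp2e1 stabilized cerebellum ECs (50.6 ± 7.53 TPM) and stabilized posterior pituitary ECs (19.6 ± 3.0) were followed by WT cortex bound RNA (4.52 ± 5.90), without overlap, and 16 of 19 neighbouring groups in its order overlapped. For Esr1 stabilized cerebellum ECs (62.3 ± 20.4 TPM), stabilized anterior pituitary ECs (47.0 ± 9.95) and WT anterior pituitary GFP-negative cells (43.1 ± 1.49) overlapped in turn. Stabilized posterior pituitary ECs came next (19.3 ± 3.05). The rank of the stabilized cerebellum ECs rested on the short transcripts. On the other Esr1 transcripts they were at 0.507 and 0.358 TPM, against 37.6 and 42.1 TPM in WT anterior pituitary GFP-negative cells.

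Open chromatin around the genes was compared by the presence of peaks, since peaks were called for each library on its own and the depth is unknown. Peaks within 100 kb of the gene body entered if both their enrichment over background and their −log10 q exceeded 2. A region was counted as gained where both stabilized libraries and neither WT library of a tissue had a peak. The libraries had between 20634 and 45042 such peaks. WT posterior pituitary had 21051 and 20634 of them and stabilized posterior pituitary 28927 and 38585. WT cerebellum had 26396 and 24021 and stabilized cerebellum 33515 and 31669, so the count of peaks itself moved with genotype in both tissues.

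Near Itih5, 13 regions were found, of which 3 were present in all 12 libraries, including that at the promoter (chr2:10153100-10154084). The intronic region (chr2:10159685-10160559, summit 6.58 kb from the gene start) was present in WT cerebellum ECs with fold enrichments of 9.35 and 10.6 and absent from all 4 WT pituitary libraries. With stabilization it was present in both anterior (10.2 and 9.57) and both posterior pituitary libraries (10.2 and 11.4), and stood at 16.3 and 16.2 in cerebellum. It was the sole region near the 3 genes gained in both pituitary lobes. A further intronic region (chr2:10250480-10250967) was gained in posterior pituitary, with fold enrichments of 3.69 and 4.44. An exonic region (chr2:10255664-10256579) was present in all 4 cerebellum libraries and in none of the pituitary.

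Near Cyp2e1, 10 regions were found, and the gene had no peak at its start or in its body in any library. A region 7.09 kb upstream (chr7:140756142-140756850) was present in all 4 cerebellum libraries and in no pituitary library. Fold enrichments there were 10.2 and 3.14 in WT cerebellum ECs, against 11.5 and 9.50 in stabilized ones. In cerebellum 4 regions were gained, at -87.7, 42.2, 61.8 and 65.0 kb from the gene start, with fold enrichments between 3.17 and 7.17. The first overlaps Olfr539 and the last 2 overlap Gm45785. In posterior pituitary, where Cyp2e1 rose, no region near it was gained in both libraries.

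Near Esr1, 8 regions were found. The intronic region 1.27 kb from the gene start (chr10:4612724-4613043) was gained in cerebellum (3.94 and 4.51) and in anterior pituitary (5.61 and 4.42), and was present in stabilized posterior pituitary replicate 2 alone (4.96). Another intronic region (chr10:4614313-4614563) was present in all 12 libraries. The intronic region at chr10:4620802-4621550 was present in all cerebellum and anterior pituitary libraries of both genotypes and in posterior pituitary in stabilized replicate 2 alone.

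Gained regions were common. Of the regions in both stabilized libraries, 17.9% were gained in cerebellum, 7.67% in anterior and 28.5% in posterior pituitary. Of those in both WT libraries, 3.3%, 5.72% and 3.08% were lost. Of all 49585 genes, 36.9%, 22.1% and 40.6% had a gained region within the same window in these tissues. Against this background all 3 members had a gained region in cerebellum, Esr1 and Itih5 in anterior pituitary, and Itih5 in posterior pituitary. Itih5 also had the sole lost region, in anterior pituitary (chr2:10291513-10291885), where 16.6% of genes had a lost region, against 5.68% in cerebellum and 4.49% in posterior pituitary.

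**Figure D4:**
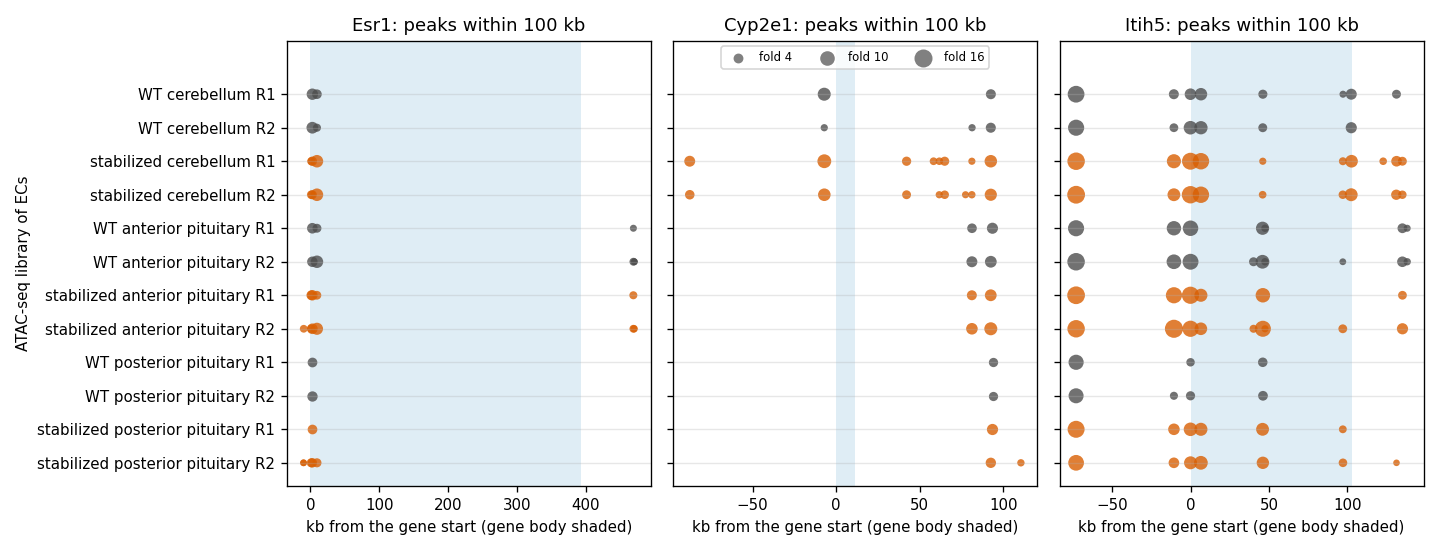
ATAC-seq peaks within 100 kb of each gene, placed by the distance of the summit from the gene start in kb, with a row for each EC library and point area in proportion to fold enrichment (WT gray, stabilized orange, gene body shaded). The Itih5 peak at 6.58 kb is seen in cerebellum of both genotypes and in stabilized pituitary libraries, and not in WT pituitary.

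The TCF/LEF motifs TTCAAAG and ATCAAAG and the estrogen response element, GGTCA and TGACC with 3 bases between them, were searched on both strands. None was found within 100 bases of the summit of any region gained near the 3 genes. Of all gained regions, 12.9% in cerebellum, 21.7% in anterior and 15.0% in posterior pituitary held TTCAAAG or ATCAAAG, against 9.64%, 6.38% and 6.91% of all regions of the stabilized libraries. In promoters, the Cyp2e1 sequence printed above held TTCAAAG once, a motif found in 5.14% of 32851 promoters of the same length. The listed promoters of Esr1 and Itih5 held none of the motifs, of which ATCAAAG was found in 3.73% and the estrogen response element in 0.07% of all promoters.

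Genes with related roles were described from lists. Among 16 tested genes for estrogen receptors and their co-regulators, Esr1 was the gene called higher in posterior pituitary ECs, and Ncor1, a co-repressor of nuclear receptors, fell by 1.25 on the log2 scale (edgeR, adjusted p = 0.0445). Their median there was -0.55, against 0.01 over all genes. In anterior pituitary ECs none of the 16 was called by edgeR, 4 had an unadjusted p under 0.05 and DESeq2 called 1. Of all genes tested, an unadjusted p under 0.05 was found for 6.99% in anterior and 12.9% in posterior pituitary ECs, and for 22.7% in cortex and 13.9% in choroid plexus bound RNA. Esr2, the gene of estrogen receptor beta, reached at most 0.258 TPM in any EC or bound library.

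Of 13 tested estrogen target genes, 1 was called higher on counts in each of the tested EC contrasts and none was called lower. In choroid plexus bound RNA and in anterior pituitary ECs it was Cxcl12, a chemokine, with log2 fold changes of 3.12 ± 0.37 (edgeR, adjusted p = 0.00695) and 2.87 (adjusted p = 0.0498). In posterior pituitary ECs it was Tgfa, a ligand of the epidermal growth factor receptor (2.67 ± 0.36, edgeR, adjusted p = 0.00244). In cortex bound RNA it was Rara, a retinoic acid receptor (1.83 ± 0.38, edgeR, adjusted p = 0.0242). Its mean TPM went the other way, at 10.6 in WT and 7.33 in stabilized cortex bound RNA. The list median lay between -0.14 and 0.37 in these contrasts. Pgr, the progesterone receptor and a classical estrogen target, was at or below 0.222 TPM in the mean of any pituitary EC group.

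Cyp2e1 was the sole gene called among the cytochrome P450 genes of families 1 to 3 and their partners in posterior pituitary ECs, 1 of 13 tested, and none was called in anterior pituitary ECs (13 tested) or in either bound RNA (12 tested) by edgeR. At an unadjusted p under 0.05 edgeR found 0 of them in anterior pituitary ECs and 1 in each bound RNA, and DESeq2 called 1, lower in cortex bound RNA. Por, the reductase that passes electrons to P450 enzymes, was at 47.7 TPM in stabilized and 32.1 TPM in WT posterior pituitary ECs (edgeR, adjusted p = 0.427). Among genes of alcohol and acetaldehyde metabolism, 2 of 7 were called higher in posterior pituitary ECs. They were Cyp2e1 and Aldh1a1, an aldehyde dehydrogenase that makes retinoic acid, at 1.94 TPM in WT and 45.5 TPM in stabilized ECs (log2 fold change 5.33 ± 1.05, edgeR, adjusted p = 0.0295).

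Of 15 tested genes of pericentral hepatocytes, 4 were called higher in posterior pituitary ECs. Besides Cyp2e1 they were Axin2 and Nkd1, Wnt feedback inhibitors, and Glul, glutamine synthetase. Axin2 had a log2 fold change of 5.73 ± 1.16 (edgeR, adjusted p = 0.0291) and Glul of 1.57 ± 0.29 (edgeR, adjusted p = 0.0191). In mean TPM Glul went from 203 in WT to 262 in stabilized ECs. The list median was 1.57. In anterior pituitary ECs 1 of 15 was called, Nkd1. In bound RNA the counts of 13 tested were 1 in choroid plexus, Nkd1, and in cortex 2 higher, Axin2 and Nkd1, and 1 lower, Glul (-1.12, edgeR, adjusted p = 0.0492).

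Wnt feedback and target genes were called higher in 7 of 13 in posterior pituitary ECs, 4 of 13 in anterior pituitary ECs, 4 of 11 in choroid plexus bound and 3 of 11 in cortex bound RNA, and none was called lower. Their medians were 5.56, 3.12, 2 and 1.61. Notum, a secreted Wnt inhibitor, was at 2.36 and 2.35 TPM in stabilized anterior and at 8.40 and 13.8 TPM in stabilized posterior pituitary ECs, and was listed at 0 in WT of both.

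Itih5 was the sole called gene of its family. Itih2 and Itih3, which encode other heavy chains, were the only relatives that passed the filter on low counts, and neither was called. Itih2 was at most 1.69 TPM in the mean of any EC or bound group compared here, and Itih3 was at 14.1 TPM in WT cortex bound RNA and 1.68 TPM in stabilized. Of 15 or 16 tested genes of hyaluronan synthesis, binding and breakdown, none was called in posterior or anterior pituitary ECs or in bound RNA of either tissue (edgeR). At an unadjusted p under 0.05 there were 3, 2, 2 in cortex and 1 in choroid plexus, and DESeq2 called 1, 1, 2 in cortex and 0 in choroid plexus higher. The medians were -0.67 and -0.14 in posterior and anterior pituitary, 0.08 in cortex and 0.46 in choroid plexus.

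The genes whose normalized counts followed those of each member most closely over the 12 GFP-positive libraries were named by Pearson r of log2 normalized counts among 7133 genes. These correlations are descriptions over libraries that share tissue and genotype. For Esr1 they were Rps2 (r = 0.901), Nxpe4 (0.898), Dnajb2 (0.887), Rps18 (0.887) and Abcg2 (0.876). Rps2 and Rps18 encode ribosomal proteins with near-identical copies in the genome, so their values are uncertain. For Cyp2e1 they were Hacd3 (0.935), Aldh6a1 (0.901), Mob1a (0.901), Ei24 (0.899) and Bola2 (0.897), and over the 8 bound libraries their r lay between -0.04 and 0.378. In TPM some of these genes went the other way in posterior pituitary ECs, from a mean of 141 in WT to 84.4 in stabilized ECs for Mob1a, from 94.6 to 48.4 for Ei24 and from 15.8 to 10.3 for Dnajb2. Their likeness in TPM was not measured. For Itih5 they were Tgfa (0.956), Gpr160 (0.942), Scube2 (0.940), Ndnf (0.937) and Apcdd1 (0.929), the last a Wnt inhibitor. Over the 8 bound libraries r was 0.973 for Scube2, 0.920 for Apcdd1, 0.841 for Ndnf, 0.567 for Tgfa and 0.322 for Gpr160. Ndnf, a secreted neurotrophic factor, was at 66.4 and 192 TPM in the means of WT and stabilized cerebellum ECs, at 0.353 and 5.73 TPM in anterior and at 0.219 and 29.5 TPM in posterior pituitary ECs.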

How the data were processed

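RNA-seq files were deposited as Salmon 0.10.2 output per transcript, holding estimated counts and TPM per the labels and the authors' methods (GRCm38, Ensembl annotation, bias correction). ATAC-seq files were deposited as peak lists per library (Bowtie2 2.3.2, Picard, MACS2 2.1.1.20160309), in which the authors' columns give the fold enrichment as a ratio over local background and the −log10 p and q. Transcripts were assigned to genes with GENCODE M21 on GRCm38 (130338 of 130740 matched, with 0.0588% to 0.385% of reads unmatched per library), summed and rounded.

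Counts were tested with edgeR 4.0.16 (R 4.3.3, limma 3.58.1), TMM normalization, filterByExpr and the quasi-likelihood test with Benjamini-Hochberg adjustment over all genes, in fits over all GFP-positive, GFP-negative, bound or input libraries, or over all sorted or RiboTag libraries for enrichment. A call needed an adjusted p under 0.05 and at least a 2-fold change. The authors used EBSeq for their comparisons, which was not used here. The methods of the authors call the 2 replicates of a group biological. Their methods also give input as an aliquot of the homogenate used for bound RNA, and bound and input libraries of the same number deviated together (correlations of 0.0835 to 0.219 in 4 pairs), so bound over input was also fitted with 1 block per homogenate. The methods likewise describe both sorted fractions and both pituitary lobes as taken from the same mice, so these were blocked by replicate number too, with same-numbered correlations of 0.0014 to 0.127 between WT fractions and between -0.0046 and -0.0009 between the lobes of ECs of 1 genotype. In simulated data with 100 genes changed 4-fold (log2 of 2), 13% were recovered for anterior pituitary ECs and 18% for choroid plexus bound RNA, and none at 2-fold. Alternatives were DESeq2 1.42.0, RLE normalization, no filter, a replicate block, a length offset, only the groups compared and leaving out each replicate.

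Members and the 23 gene lists were chosen with earlier results of these data known. Named list genes were those called in a tested EC contrast with a mean of at least 1 TPM in the higher group, up to 4 per list, of which 1 result is not reported here, and Por, Pgr, Esr2, Itih2 and Itih3 were named after their values were seen. For each member, 5 genes of like pattern were named among those reaching 10 TPM in both libraries of a group. Motifs were searched by exact match. Promoter sequences and the genome are from RefSeq (GRCm38.p6), which held listed promoters for all 3 genes, and the peak coordinates fit its chromosome lengths. TPM differences were taken on log2(TPM + 0.1). Intervals and limits cover counting error only.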

Additional observations from a re-analysis of the deposited data

Results flagged for a closer look

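Several results moved in opposite directions in 2 groups in every library, and these differences were not tested unless stated. They were searched for over many pairs of groups. With 2 libraries per group such patterns can arise often without a change, and the share of all genes that showed them was not counted. On log2(TPM + 0.1), the stabilized minus WT difference of Esr1 in cortex bound RNA was negative in both libraries and positive in pituitary ECs and choroid plexus bound RNA. In counts the cortex difference was 0.02 (edgeR, adjusted p = 1) with overlapping groups, and without the short transcripts it was -0.61 in cortex and -0.54 in choroid plexus bound RNA, the same direction. The gap to cortex was 3.99 for anterior pituitary ECs and 7.72 for posterior pituitary ECs, and cortex minus choroid plexus bound RNA was -2.15. The last pair was tested on counts, with no call (log2 difference 1.63, edgeR, adjusted p = 0.204). In the anterior pituitary, Esr1 was higher in TPM in stabilized GFP-positive and lower in stabilized GFP-negative cells, a gap of 4.79.

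In TPM Itih5 was higher in bound and lower in input RNA of stabilized cortex, a gap of 1.58, but in counts it was higher in stabilized cortex input too (log2 difference 0.89, edgeR, adjusted p = 0.0100).

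Xist, which no comparison uses, had a mean of 8.03 TPM in stabilized cortex bound RNA and 0.296 TPM in stabilized cortex input, and was 0 in the WT cortex libraries, although all were labelled male. With 2 libraries per group, no group was large enough to look for a library that stood apart.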

How the results depend on the processing

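The 36 test results for the 3 genes were recomputed 402 times, of which 358 kept both the direction and the side of the threshold. Apart from libraries of the same mice, the replicate numbers did not pair the libraries. With a replicate block for each homogenate, cell suspension or pool of pituitaries, added after seeing the data, the Esr1 lobe difference (5.46) was called in a fit of the pituitary ECs alone, where it was called without a block as well, and no other call changed; Esr1 bound over input was 1.94 in cortex and 2.56 in choroid plexus. With the plain replicate block, 0 of the 36 calls changed, and the genes called lower numbered 10 in anterior pituitary ECs and 18 in choroid plexus bound RNA. A count of 0 over both libraries would allow 0.176 RPM in stabilized cortex and 0.234 RPM in stabilized choroid plexus bound RNA, below the 0.527 and 4.76 RPM of Cyp2e1 there. Where no cause is named below, the cause was not tested.

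Fitted on only the groups compared, Cyp2e1 (9.09) and Itih5 (2.22) lost their calls in posterior pituitary ECs, with fewer libraries in the fit, while the Esr1 response difference between lobes (5.36) and Itih5 in WT anterior pituitary, GFP-positive over GFP-negative (1.24), gained them. That lobe difference was also called by DESeq2 (5.43), without the filter on low counts (5.38) and with a gene length offset (7.04), and was 3.45 with no call without the short transcripts. DESeq2 further called Esr1 in choroid plexus bound RNA (1.69), and Itih5 in WT anterior pituitary (1.11), in its lobe difference (1.52) and in posterior pituitary GFP-negative cells (1.30). Without the filter Esr1 in cerebellum GFP-negative cells (-6.69), Esr1 in anterior pituitary ECs (1.98) and Itih5 in WT anterior pituitary (1.2) and in its lobe difference (1.53) were called. The length offset called Itih5 in cortex input (1.26) and turned Cyp2e1 in WT choroid plexus, bound over input, to 0.90. Esr1 in cortex bound RNA was -0.002 under DESeq2 and RLE. Without the short transcripts, a setting added after seeing the data, Esr1 was 3.85 in posterior pituitary ECs, -0.54 in choroid plexus and -0.61 in cortex bound RNA, and 0.70 and 1.2 for bound over input in choroid plexus and cortex. With a pseudocount of 1, the log2 TPM difference in cerebellum was 5.91 for Esr1 and 5.23 for Cyp2e1, low WT levels being near the pseudocount.

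Leaving out each replicate gave -1.0 to 0.43 and -0.64 to 5.11 for Cyp2e1 bound over input in choroid plexus and cortex, -4.22 to 0.69 for Cyp2e1 in cortex bound RNA, where WT replicate 1 decided the sign, 0.17 to 3.33 in choroid plexus bound RNA and 7.80 to 13.13 in posterior pituitary ECs. For Esr1 it gave 2.46 to 2.56 and 1.95 to 2.55 for bound over input in choroid plexus and cortex, 5.03 to 6.04 for the lobe difference, -0.17 to 0.23 in cortex bound -0.017 to 1.73 in cortex input and -7.69 to -6.72 in cerebellum GFP-negative cells (no estimate without WT replicate 2), and for Itih5 in WT posterior pituitary 0.37 to 1.46, called only without WT GFP-positive replicate 1. Where a group was left with 1 library, it is assumed to vary like the others in the fit. Genes called higher and lower ranged from 92 to 216 and 5 to 39 in anterior pituitary, 179 to 772 and 20 to 372 in posterior pituitary (the highest without WT replicate 1), 66 to 115 and 18 to 62 in choroid plexus bound, and 238 to 810 and 89 to 460 in cortex bound RNA (the lowest without stabilized replicate 1).

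Counts of genes called higher and lower were 420 and 78 in anterior pituitary, 815 and 382 in posterior pituitary, 375 and 265 in choroid plexus bound and 1042 and 831 in cortex bound RNA under DESeq2. Without the filter they were 347 and 96, 588 and 364, 461 and 413, and 1138 and 999. With the length offset they were 133 and 37 in posterior pituitary, 32 and 7 in choroid plexus and 386 and 183 in cortex. With only the groups compared they came to 52 and 30 for the anterior lobe, 97 and 13 for the posterior lobe, 186 and 74 in choroid plexus, and 724 lower in cortex. Of the list counts, 45 moved beyond a set ratio of the main count under DESeq2, and 139 were equal to it or within that ratio. Altogether 50 were higher than the main count.

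For open chromatin, 79 counts were equal to the main count or within the same set ratio of it, and 11 moved beyond it. With fold over 4 and −log10 q over 5, Esr1 had 0 gained regions in cerebellum, and Itih5 had 1 lost in cerebellum and 0 in anterior pituitary. With a window of 20 kb, Cyp2e1 and Itih5 had 0 gained in cerebellum and Itih5 0 lost in anterior pituitary. Counting a peak in either replicate, 2 were gained for Itih5 in cerebellum, 2 for Esr1 in anterior pituitary with 1 lost, 4 for Esr1 and 1 for Cyp2e1 in posterior pituitary.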

Other observations

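Cyp2e1 in WT cortex bound replicate 1 (8.69 TPM, 148 reads) was far above replicate 2 (0.344 TPM, 6 reads), and the input of the same replicate numbers held 0.503 and 0.0999 TPM. The summed TPM of endothelial markers was 1289 in replicate 1 and 531 in replicate 2 of WT cortex bound RNA.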
